A study of Mus musculus with 58 samples.

Results

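The subject is a set of 47 genes of the G2 phase and of mitosis, among the 24537 genes of the deposited count table. A gene belongs to the set by its symbol, and all 47 symbols were found. The list was chosen with earlier results of these data known, so the counts called below are not independent of them. RNA was sequenced in bulk from 58 whole livers of male C57BL6/J mice. Every mouse, controls included, carried an AAV8 vector with the TBG promoter, which is active in hepatocytes, which limits expression of the vector gene largely to those cells. The vector encoded Myc, a growth-promoting transcription factor, or mApple, a red fluorescent protein that served as the control. Vehicle or ruxolitinib, which blocks JAK1 and JAK2, was then gavaged, ruxolitinib at 45 mg/kg 2 times a day over 30 days with pauses at weekends. Old livers carried mApple with vehicle (8 libraries), mApple with ruxolitinib (9), Myc with vehicle (11) or Myc with ruxolitinib (14). Young livers, from mice of 4 months, carried mApple with vehicle (6) or Myc with ruxolitinib (10). The first sequencing batch held 18 libraries, all from mice of 25 months, and the second held 40, with its old mice at 24 months. Age among the old mice and batch therefore cannot be told apart, and young livers were sequenced in the second batch only.

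Entry into mitosis is driven by the kinase Cdk1 bound to cyclins. Polo-like and Aurora kinases then build the spindle, kinetochores tie the chromosomes to it, and a checkpoint holds back the anaphase-promoting complex (APC/C) until every chromosome is attached. Resting cells keep the genes for these proteins silent through MuvB complexes, and dividing cells switch them on late in the cycle with B-Myb and Foxm1. Adult hepatocytes are mostly at rest, re-enter the cycle after injury or growth signals, and often skip cytokinesis, which leaves them polyploid.

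The 47 genes were sorted by role. There are 11 kinases, cyclins and transcription regulators, 4 members of the chromosomal passenger complex, 5 checkpoint and APC/C genes, 7 kinetochore and centromere genes, 14 spindle motors and microtubule proteins, 3 cytokinesis genes and 3 genes of chromosome structure. Levels are given as counts-per-million (CPM) of exon reads, with library totals scaled by TMM. Differences are log2 fold changes ± standard error from edgeR's quasi-likelihood test, two-sided, with p adjusted over all tested genes and a threshold of 0.05. The labels give each library as a separate sample, and p-values measure the spread between such samples. In whole tissue, fewer or more dividing cells and less or more RNA per dividing cell cannot be told apart.

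The promoters of these genes share short sequences, a feature the choice of members did not use. RefSeq (GRCm38.p6) promoters running from 250 bases before to 50 bases after the start were found for 40 of the 47 genes, 42 promoters in all. Each was searched on both strands for CCAAT, the box bound by NF-Y, for TTTGAA or TTCGAA, forms of the cell cycle homology region to which MuvB complexes bind, and for CACGTG, the E-box bound by Myc with Max. A CCAAT match can share its last base with a TTTGAA match, which occurred for 1 match. CCAAT was present in 33 of 42 promoters (78.6%), against 37.4% of all 32851 promoters in the table. TTTGAA or TTCGAA was present in 36 of 42 (85.7%), against 19.2% of all, and 31 of 42 (73.8%) held both kinds, against 7.52%. CACGTG was present in 2 of 42 (4.76%), against 7.15%. Among the promoters of mitosis genes outside the 47 the shares were 66.1% for CCAAT, 55.4% for TTTGAA or TTCGAA and 3.57% for CACGTG. There 39.3% held both CCAAT and TTTGAA or TTCGAA, so the strings are not particular to the 47 genes. Among the promoters of a list of DNA replication genes the shares were 52.5% for CCAAT, 22.5% for TTTGAA or TTCGAA and 12.5% for CACGTG. The CCAAT matches had a median position of 67.5 bases before the start, and the TTTGAA or TTCGAA matches lay at a median of 2 bases after it, with 35 of 49 from 60 bases before the start onward. These are matches of letters, not binding sites.

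The promoters of Cdk1, Ccnb2 (cyclin B2), Ube2c and Top2a are printed because they show the paired arrangement, that of Mki67 because its 2 TTTGAA matches lie 116 and 98 bases before the start, and that of Birc5 because it holds neither string. Each run covers 170 bases before to 30 bases after the start, 5′ to 3′ on the gene's strand, with matches to CCAAT (or its reverse, ATTGG) and to TTTGAA or TTCGAA (or TTCAAA) in capitals.
Cdk1 (chr10:69352883-69353082, minus strand): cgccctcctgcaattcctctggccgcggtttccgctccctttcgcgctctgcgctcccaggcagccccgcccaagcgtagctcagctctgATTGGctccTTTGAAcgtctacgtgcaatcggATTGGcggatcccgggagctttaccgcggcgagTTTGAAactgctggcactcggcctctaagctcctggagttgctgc
Ccnb2 (chr9:70421525-70421724, minus strand): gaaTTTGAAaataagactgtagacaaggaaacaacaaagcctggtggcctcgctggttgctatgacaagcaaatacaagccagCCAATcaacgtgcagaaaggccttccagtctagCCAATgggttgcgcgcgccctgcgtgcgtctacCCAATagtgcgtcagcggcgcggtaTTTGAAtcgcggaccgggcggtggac
Ube2c (chr2:164769759-164769958, plus strand): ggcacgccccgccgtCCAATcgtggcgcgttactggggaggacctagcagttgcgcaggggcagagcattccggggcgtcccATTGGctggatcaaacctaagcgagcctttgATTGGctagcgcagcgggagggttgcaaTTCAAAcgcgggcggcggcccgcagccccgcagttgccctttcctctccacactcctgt
Top2a (chr11:99024160-99024359, minus strand): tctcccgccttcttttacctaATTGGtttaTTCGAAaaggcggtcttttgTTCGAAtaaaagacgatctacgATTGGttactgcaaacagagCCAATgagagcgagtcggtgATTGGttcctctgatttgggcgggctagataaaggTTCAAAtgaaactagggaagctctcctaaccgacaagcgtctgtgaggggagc
Mki67 (chr7:135716350-135716549, minus strand): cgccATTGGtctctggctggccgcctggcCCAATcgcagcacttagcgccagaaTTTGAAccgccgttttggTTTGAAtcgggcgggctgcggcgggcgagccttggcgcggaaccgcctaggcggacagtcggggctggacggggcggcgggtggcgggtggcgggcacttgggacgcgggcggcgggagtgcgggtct
Birc5 (chr11:117849067-117849266, plus strand): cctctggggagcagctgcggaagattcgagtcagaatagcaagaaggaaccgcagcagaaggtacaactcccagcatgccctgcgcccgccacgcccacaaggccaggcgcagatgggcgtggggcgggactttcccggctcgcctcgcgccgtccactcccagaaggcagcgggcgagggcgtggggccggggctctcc
In these windows Cdk1 has 2 matches of each kind, Ccnb2 has 3 CCAAT and 2 TTTGAA or TTCGAA matches, Ube2c has 3 and 1, Top2a has 4 and 3, and Mki67 has 2 of each. Of the 40 matched genes, 34 hold TTTGAA or TTCGAA and 6 do not (Ccnb1, Birc5, Cenpe, Nuf2, Nusap1 and Melk). The difference between Myc and mApple in old vehicle livers had a median of 1.69 over the former and 1.94 over the latter, and under ruxolitinib the medians were 2.26 and 2.18.

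Exon counts per library ranged from 10676098 (library 866) to 40982341 (library 1149). No library had the same counts as another of its group and batch (0 of 164 pairs). The hepatocyte list (12 genes, Alb among them) was high in all libraries, at a mean log2(CPM + 1) of 10.24 to 12.15. The median Myc level was 37.9 CPM in old Myc vehicle (6.93 to 132), 33.0 in old Myc ruxolitinib (24.4 to 111) and 50.9 in young Myc ruxolitinib (36 to 61.4). It was 15.6 CPM in old mApple vehicle (2.99 to 56.7), 7.65 in old mApple ruxolitinib (2.36 to 19.3) and 8.30 in young mApple vehicle (4.24 to 22.4). The library labelled old Myc vehicle 870 held the lowest value among the Myc libraries and lay within the mApple range. The counts do not separate vector transcripts from those of the mouse's own gene.

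Mitosis gene levels varied widely between libraries of a group. As the mean of log2(CPM + 1) over the 47 genes, old mApple vehicle livers ran from 0.64 to 1.48 (median 1.19) and old mApple ruxolitinib livers from 0.74 to 2.13 (median 1.48). Old Myc vehicle livers ran from 1.12 to 3.11 (median 2.33) and old Myc ruxolitinib livers from 1.37 to 4.30 (median 2.39). Young Myc ruxolitinib livers ran from 1.08 to 2.34 (median 1.82). Young mApple vehicle livers ran from 0.63 to 0.89 in 5 libraries and stood at 2.62 in the other, number 1129. The old Myc groups overlapped the old mApple groups at their lower edge, and the medians of the 3 Myc groups lay above those of the 3 mApple groups. Medians of old groups pool both batches, whereas young groups are of the second only. In the second batch alone the old Myc vehicle median was 1.58, below that of young Myc ruxolitinib. There the old mApple ruxolitinib median was 0.84, and the old mApple vehicle livers stood at 0.64, 0.69, 1.34 and 1.48. In the second batch, which holds all 6 groups, 43 of the 47 genes had their highest group median in old Myc ruxolitinib. The lowest group median was in young mApple vehicle for 32 genes, in old mApple ruxolitinib for 11 and in old mApple vehicle for 4.

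**Figure D1:**
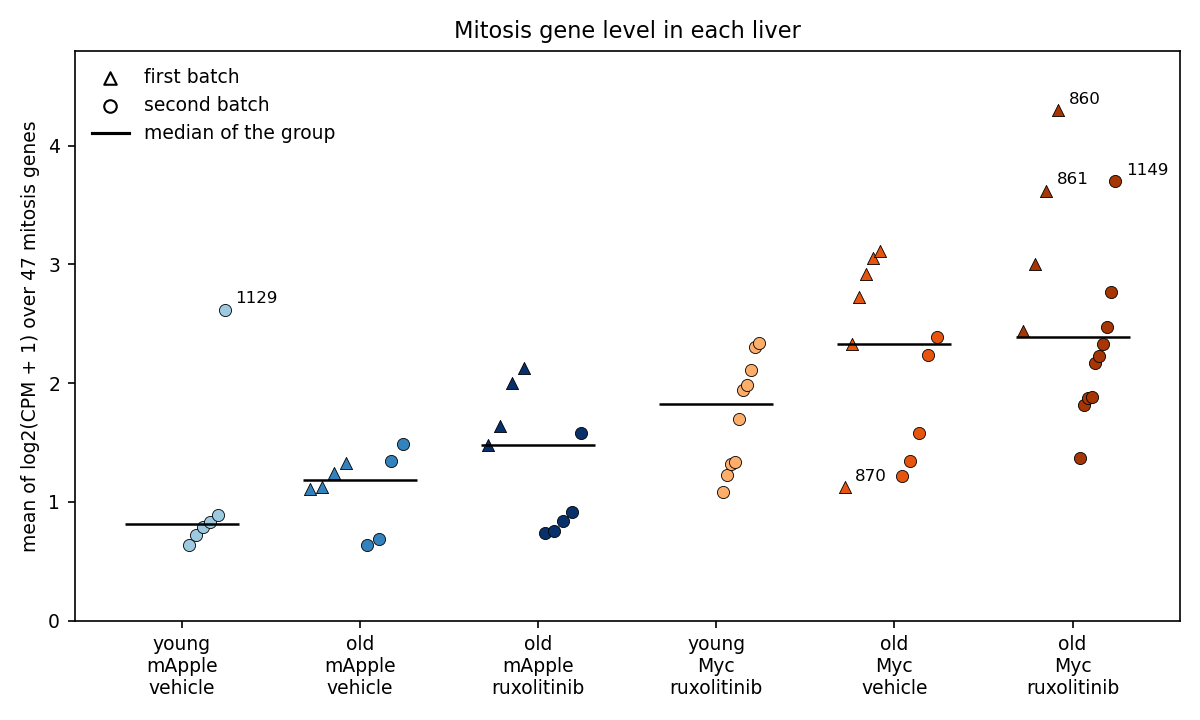
Mean of log2(CPM + 1) over the 47 mitosis genes (vertical axis) in each of the 58 libraries, by group, with triangles for the first and circles for the second batch and a line at each group's median. Libraries 860, 861 and 1149 are the highest of old Myc ruxolitinib (4.30, 3.62 and 3.70), and 1129 lies at 2.62 above the other young mApple vehicle libraries (0.63 to 0.89).

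Several libraries stood apart, and they are described before the comparisons. Library 1129, young mApple vehicle, held the highest value of its group for 47 of 47 genes. Its Mki67 level was 19.98 CPM, against 0.83 to 3.17 in the other 5 libraries, and Top2a was 20.3 CPM against 0.70 to 1.90. Cdk1 was 7.5 CPM against 0.36 to 1.11, and Ccnb1 was 6.85 against 0.13 to 0.31. Its Myc level was 4.65 CPM, within the range of the other 5 (4.24 to 22.4), while the leukocyte gene Ptprc was at 21.1 CPM against 5.12 to 11.5. Its lymphocyte markers, which include Ptprc, summed to 33.0 CPM and its Kupffer cell and macrophage markers to 622 CPM, each the highest of the group. Its hepatocyte list lay at 166230 CPM, within the group's range of 130200 to 223800. The part of these cells in its mitosis levels was not tested.

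Libraries 860 and 861, old Myc ruxolitinib of the first batch, held the highest mean mitosis levels of that group and batch. Of the 47 genes, 860 was highest for 46 and 861 for 0, and 861 was lowest for 2. Ptprc was at 118.9 and 99.6 CPM in 860 and 861, against 34.3 and 11.7 in the other 2 libraries of the group and batch, 868 and 869. Kupffer cell and macrophage markers summed to 6535 and 4583 CPM, against 1643 and 606, and lymphocyte markers to 204 and 192 CPM, against 95.8 and 25.3. The lymphocyte list includes Ptprc, so these sums count it again. The hepatocyte list was at a mean log2 of 10.39 and 10.24, the lowest of all 58 libraries. Library 1149, of the same group in the second batch, was the most deeply sequenced of all. It held the highest value of its batch for 47 of 47 genes. Ptprc was at 5.55 CPM in 1149, lymphocyte markers at 9.04 and Kupffer cell and macrophage markers at 289. Its neutrophil and myeloid precursor markers summed to 38.8 CPM, the highest of the second batch, against 28.3 in 860 and 72.4 in 861. The part of these cells in the mitosis levels of 1149 was not tested. Its hepatocyte list was at 11.91.

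**Figure D2:**
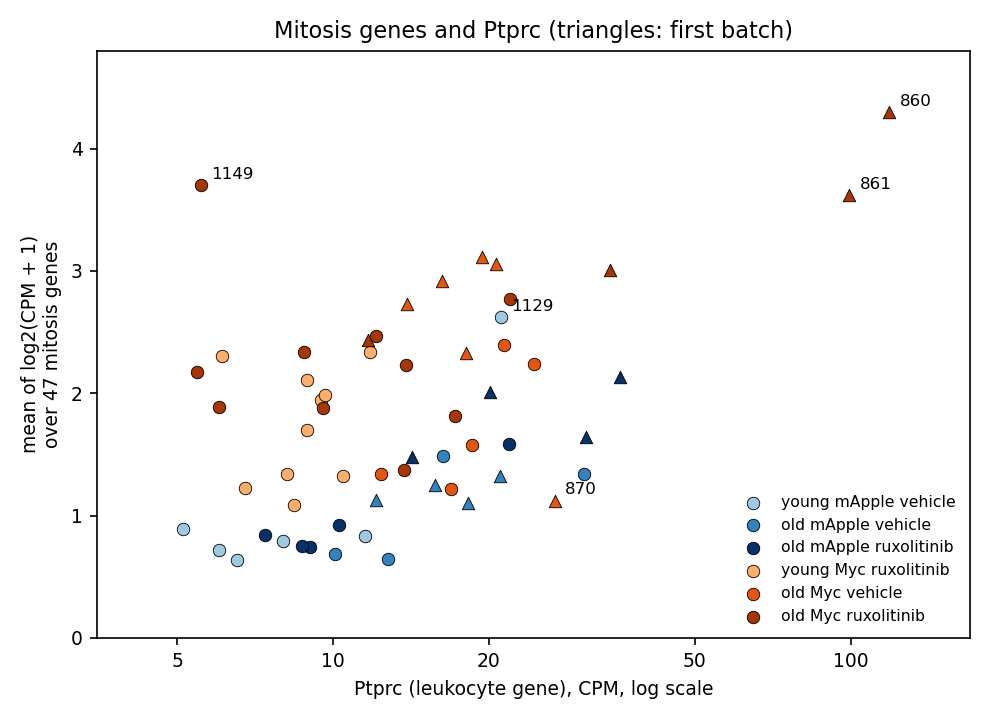
Mean of log2(CPM + 1) over the 47 mitosis genes (vertical axis) against the level of the leukocyte gene Ptprc in CPM (horizontal axis, log scale) in the 58 libraries, coloured by group. Libraries 860 and 861 are high in both, at 118.9 and 99.6 CPM of Ptprc, whereas 1149 has a mitosis level of 3.70 with Ptprc at 5.55 CPM.

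Levels of single genes in 1149 were set beside those in 860 and 861. The ratio of 1149 to 860 ran from 0.083 for Kif23 to 2.38 for Ckap2, with a median of 0.63, and 11 of the 47 genes were higher in 1149. Against 861, 27 of the 47 genes were higher in 1149. Kif23, a motor of the central spindle, was at 53.7 CPM in 860 and 4.44 in 1149. Incenp, the scaffold of the chromosomal passenger complex, was at 60.1 and 11.2 CPM, Mki67, which coats mitotic chromosomes and marks cycling cells, at 110.9 and 38.4, and Foxm1, the forkhead factor of G2/M transcription, at 32.2 and 9.52. The order was reversed for Cdc20, which activates the APC/C, at 17.4 CPM in 860 and 40.7 in 1149. It was reversed too for Ckap2, a spindle protein, at 11.2 and 26.6, and for Ccnb1, cyclin B1, at 17.9 and 23.3. Library 870, with the low Myc level, held the lowest value of its group and batch for 46 of 47 genes, at a mean of 1.12. Other libraries went the other way. Library 855, of old mApple vehicle, had the highest Myc level of the mApple libraries, 56.7 CPM, with a mean of 1.13. Library 1149 had Myc at 24.45 CPM, at the low end of its group, with a mean of 3.70. The relation of Myc and mitosis levels across libraries was not tested.

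**Figure D3:**
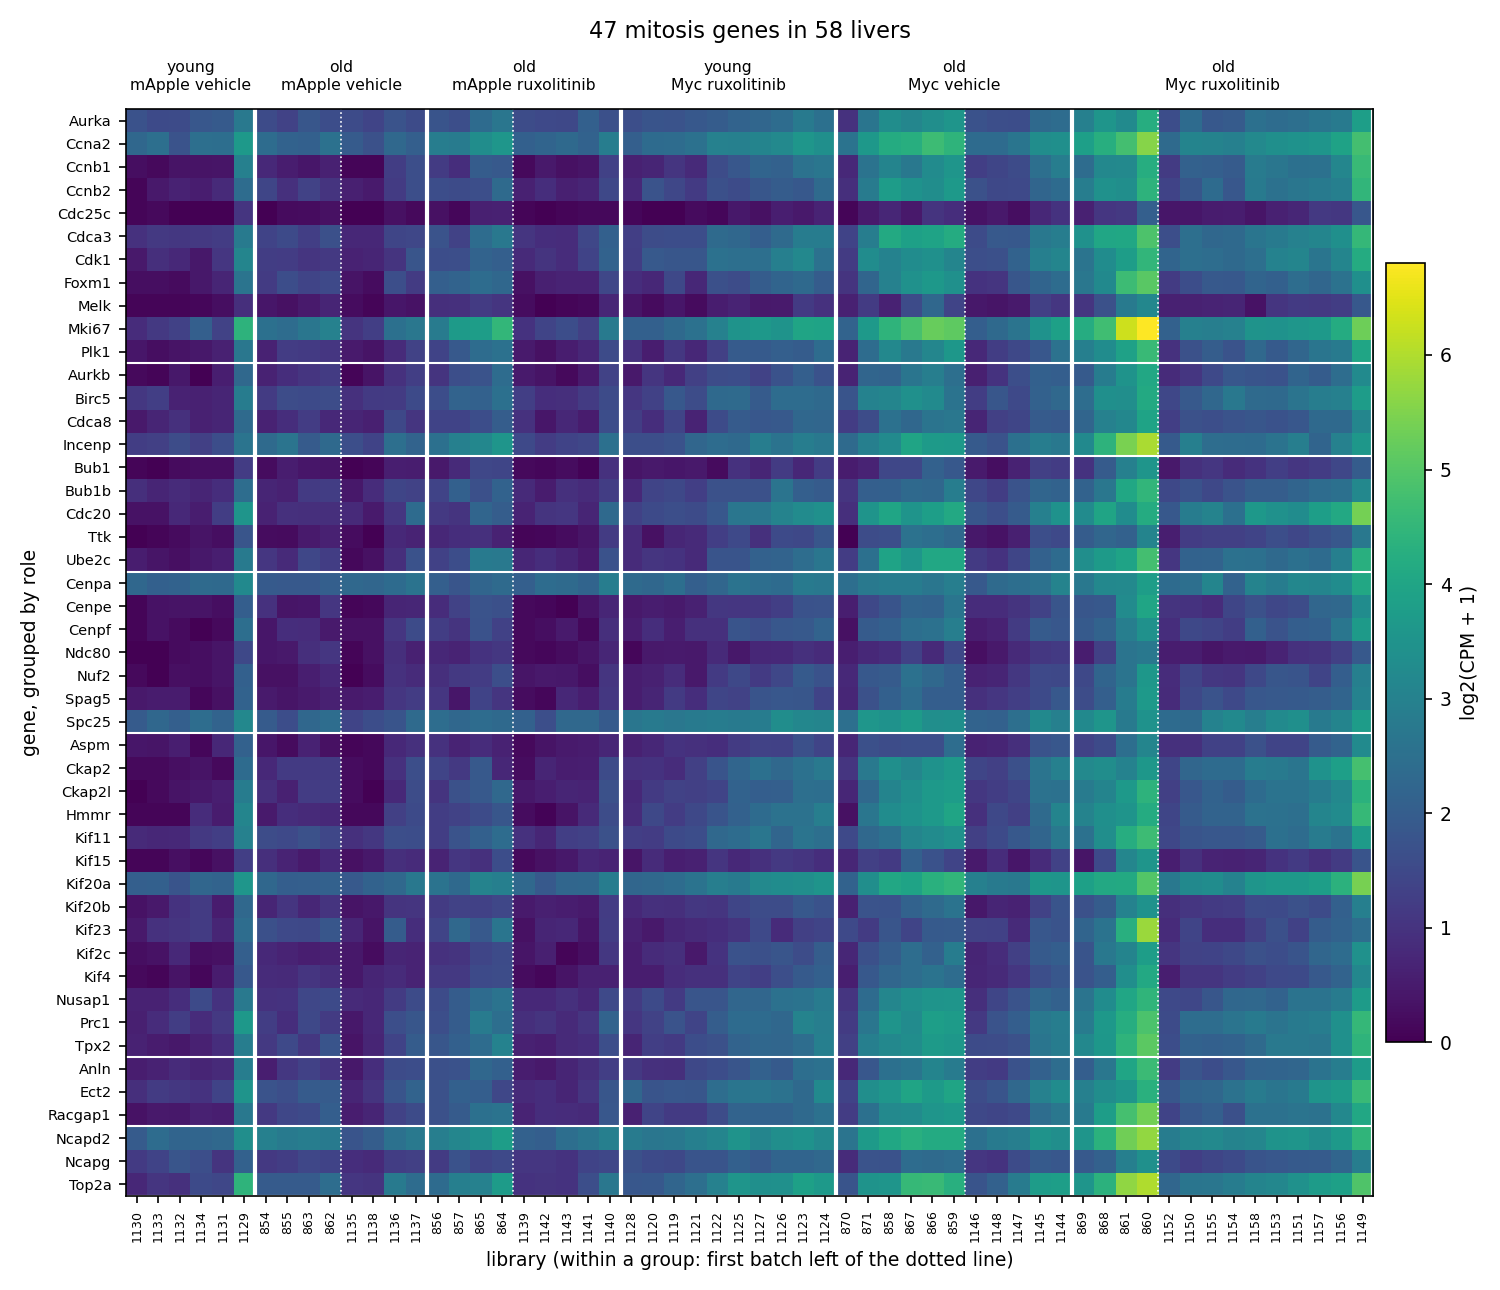
Level of each of the 47 mitosis genes (rows, sorted by role) in each of the 58 libraries (columns, by group and batch), coloured by log2(CPM + 1), with white lines between groups and roles and a dotted line between batches. The column of 1129 stands out among young mApple vehicle livers, and within old Myc ruxolitinib the columns of 860 and 861 are higher than that of 1149 for Kif23 and Incenp and lower for Cdc20 and Ckap2.

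Levels per kb of exon allow the genes to be set beside each other. In young mApple vehicle livers the highest group medians were those of Cenpa (2.54 CPM per kb), the centromeric histone, of Spc25 (2.01), a kinetochore subunit, of Ccna2 (1.62), cyclin A2, and of Aurka (1.25), the centrosomal Aurora kinase. The lowest was Cenpf (0.012 CPM per kb), a large kinetochore protein. In old Myc ruxolitinib livers Cdc20 (5.34 CPM per kb), Ube2c (5.16), the ubiquitin-conjugating enzyme of the APC/C, and Cenpa (4.91) led, and Aspm (0.18), a spindle pole protein, was lowest. The order of genes thus differed between groups, with Cdc20 moving from 0.33 to 5.34 CPM per kb and Cenpa from 2.54 to 4.91.

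The first comparison asks what the Myc vector changed in old livers under vehicle (11 Myc against 8 mApple libraries). Of the 47 mitosis genes 46 passed the filter on low counts, and 43 rose and 0 fell. Over all 13578 tested genes 10.8% were called higher and 8.07% lower. The median difference of the tested mitosis genes was 1.72, against -0.02 over all tested genes, and it ran from 0.27 (Kif23) to 2.74 (Hmmr). Cdc25c, the phosphatase that activates Cdk1, was too low to be tested. The 3 genes not called were Kif23 (0.27 ± 0.32, edgeR adjusted p = 0.605), Ndc80, the microtubule-binding kinetochore subunit (0.69 ± 0.40, adjusted p = 0.249), and Kif15, a spindle motor (0.95 ± 0.36, adjusted p = 0.0704).

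Among the regulators 10 of 10 tested genes rose, with a median of 1.98. Cdk1 (chr10:69336635-69352912 on mm10) ranged from 1.26 to 9.73 CPM (median 7.15) in Myc livers and from 0.575 to 2.46 CPM (median 1.13) in mApple livers. Of the 11 Myc livers 8 lay above every mApple liver. Such counts and ranges, here and below, pool both batches unless a batch is named. The difference of 2.21 ± 0.38 (edgeR adjusted p = 0.000495) had the smallest p of the 46 genes. Ccnb1 (chr13:100778739-100786486) ranged from 0.723 to 10.8 CPM (median 5.07) against 0.0575 to 2.13 CPM (median 0.506), with 7 Myc livers above every mApple liver, a difference of 2.66 ± 0.57 (adjusted p = 0.0029). Ccnb2 ranged from 0.903 to 12.7 CPM (median 4.24) against 0.406 to 2.13 CPM (median 1.16), a difference of 2.05 ± 0.42 (adjusted p = 0.00221). Both B-type cyclins overlapped between the groups through the lowest Myc livers, and library 870 was lowest for both. Ccna2, which acts in S phase as well as in mitosis, ranged from 4.2 to 24.2 CPM (median 9.43) against 2.21 to 4.84 CPM (median 3.35). Its difference was 1.54 ± 0.28 (adjusted p = 0.000766), and among the 47 genes it alone had all Myc livers above all mApple livers of the same batch in both batches. Over all tested genes that pattern held for 2.14%, so 1 gene of 47 is close to the share over all genes.

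Plk1, the polo-like kinase, ranged from 0.602 to 11.1 CPM (median 4.35) in Myc livers against 0.29 to 1.53 CPM (median 0.956) in mApple livers, a difference of 2.10 ± 0.47 (edgeR adjusted p = 0.00376). Foxm1 ranged from 0.986 to 11.4 CPM (median 3.62) against 0.174 to 2.08 CPM (median 1.46), a difference of 1.77 ± 0.45 (adjusted p = 0.00973). Mki67 (chr7:135689788-135716379) ranged from 3.11 to 36.5 CPM (median 11.5) against 1.03 to 6.91 CPM (median 4.73), a difference of 1.64 ± 0.42 (adjusted p = 0.0097). For Plk1 and Foxm1 8 of 11 Myc livers lay above every mApple liver, and for Mki67 7 did. Aurka ranged from 0.964 to 10.7 CPM (median 4.33) against 1.52 to 2.54 CPM (median 1.94), a difference of 1.19 ± 0.34 (adjusted p = 0.0171). That was the smallest difference among the regulators, and library 870 lay below every mApple liver. Cdca3, a trigger of mitotic entry, differed by 2.23 ± 0.40 (adjusted p = 0.000759) and Melk, a kinase of dividing cells, by 1.91 ± 0.45 (adjusted p = 0.00543).

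In the chromosomal passenger complex, which corrects faulty attachments at the centromere, 4 of 4 genes rose. Its kinase Aurkb ranged from 0.519 to 6.52 CPM (median 3.22) against 0.0575 to 1.4 CPM (median 0.898), a difference of 1.84 ± 0.45 (edgeR adjusted p = 0.00752). Birc5 (survivin) ranged from 1.35 to 9.61 CPM (median 3.9) against 0.92 to 1.99 CPM (median 1.57), a difference of 1.44 ± 0.27 (adjusted p = 0.0012), and 9 of 11 Myc livers lay above every mApple liver. Cdca8 (borealin) differed by 1.5 ± 0.36. Incenp had the smallest difference of the complex, 0.91 ± 0.27 (adjusted p = 0.0217), and the highest median of the 4 genes per length in old mApple vehicle livers, 1.16 CPM per kb against 0.46 to 0.48.

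All 5 checkpoint and APC/C genes rose. Cdc20 ranged from 0.903 to 16.1 CPM (median 9.999) in Myc livers against 0.406 to 4.19 CPM (median 0.888) in mApple livers, a difference of 2.56 ± 0.54 (edgeR adjusted p = 0.0028). The highest mApple value was that of library 1137, which overlapped with 4 of the 11 Myc livers. Ube2c ranged from 0.997 to 15.8 CPM (median 4.24) against 0.115 to 2.26 CPM (median 1.0), a difference of 2.33 ± 0.53 (adjusted p = 0.00441). Bub1b, the checkpoint protein BubR1, ranged from 1.08 to 6.32 CPM (median 3.24) against 0.345 to 1.68 CPM (median 1.02), a difference of 1.55 ± 0.33 (adjusted p = 0.00306), with 9 of 11 Myc livers above every mApple liver. The checkpoint kinases Ttk (Mps1) and Bub1 differed by 2.34 ± 0.66 and 2.08 ± 0.53.

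Of the 7 kinetochore and centromere genes 6 rose. The smallest called difference of the whole set was that of Cenpa (0.54 ± 0.17, edgeR adjusted p = 0.0344). Nuf2, Spc25 and Ndc80 encode subunits of one kinetochore complex, which grips microtubules, and their differences were 2.09 ± 0.47, 1.27 ± 0.23 and 0.69 ± 0.40. Ndc80 ranged from 0.208 to 1.79 CPM (median 0.762) against 0.0575 to 1.11 CPM (median 0.456), and only 4 of 11 Myc livers lay above every mApple liver. The large kinetochore proteins Cenpe and Cenpf differed by 1.96 ± 0.44 and 1.69 ± 0.54.

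Of the 14 spindle motors and microtubule proteins 12 rose. Hmmr, which organises spindle poles, differed most of all 46 genes (2.74 ± 0.63, edgeR adjusted p = 0.00473), followed in this role by Ckap2l (2.46 ± 0.55) and Ckap2 (2.42 ± 0.48). Kif11, the motor that pushes spindle poles apart, ranged from 1.45 to 9.9 CPM (median 3.95) against 0.92 to 2.22 CPM (median 1.92), a difference of 1.31 ± 0.32 (adjusted p = 0.00709). Kif2c, which takes microtubules apart at the centromere, differed by 2.22 ± 0.41 (adjusted p = 0.000943). Kif23 ranged from 0.743 to 2.9 CPM (median 1.81) against 0.29 to 2.96 CPM (median 1.82), and no Myc liver lay above every mApple liver of the pooled batches. In the first batch Myc libraries 859 (2.90 CPM) and 866 (2.79) lay above the highest mApple value (2.54, library 862). In the second the highest Myc value was 2.60 (library 1145), below 2.96 in mApple library 1136.

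All 3 cytokinesis genes rose, and all 3 genes of chromosome structure rose. Anln, a protein of the contractile ring, ranged from 0.723 to 7.36 CPM (median 3.33) in Myc livers against 0.345 to 2.06 CPM (median 1.13) in mApple livers, a difference of 1.49 ± 0.41 (edgeR adjusted p = 0.0158). Ect2 and Racgap1, which switch on the ring's GTPase, differed by 1.70 ± 0.39 and 1.67 ± 0.38. Top2a, which untangles DNA, ranged from 2.39 to 23.5 CPM (median 10.7) against 1.04 to 6.0 CPM (median 2.89), a difference of 1.72 ± 0.44 (adjusted p = 0.00984). The condensin subunits Ncapg and Ncapd2 differed by 0.88 ± 0.29 and 1.01 ± 0.22.

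**Figure D4:**
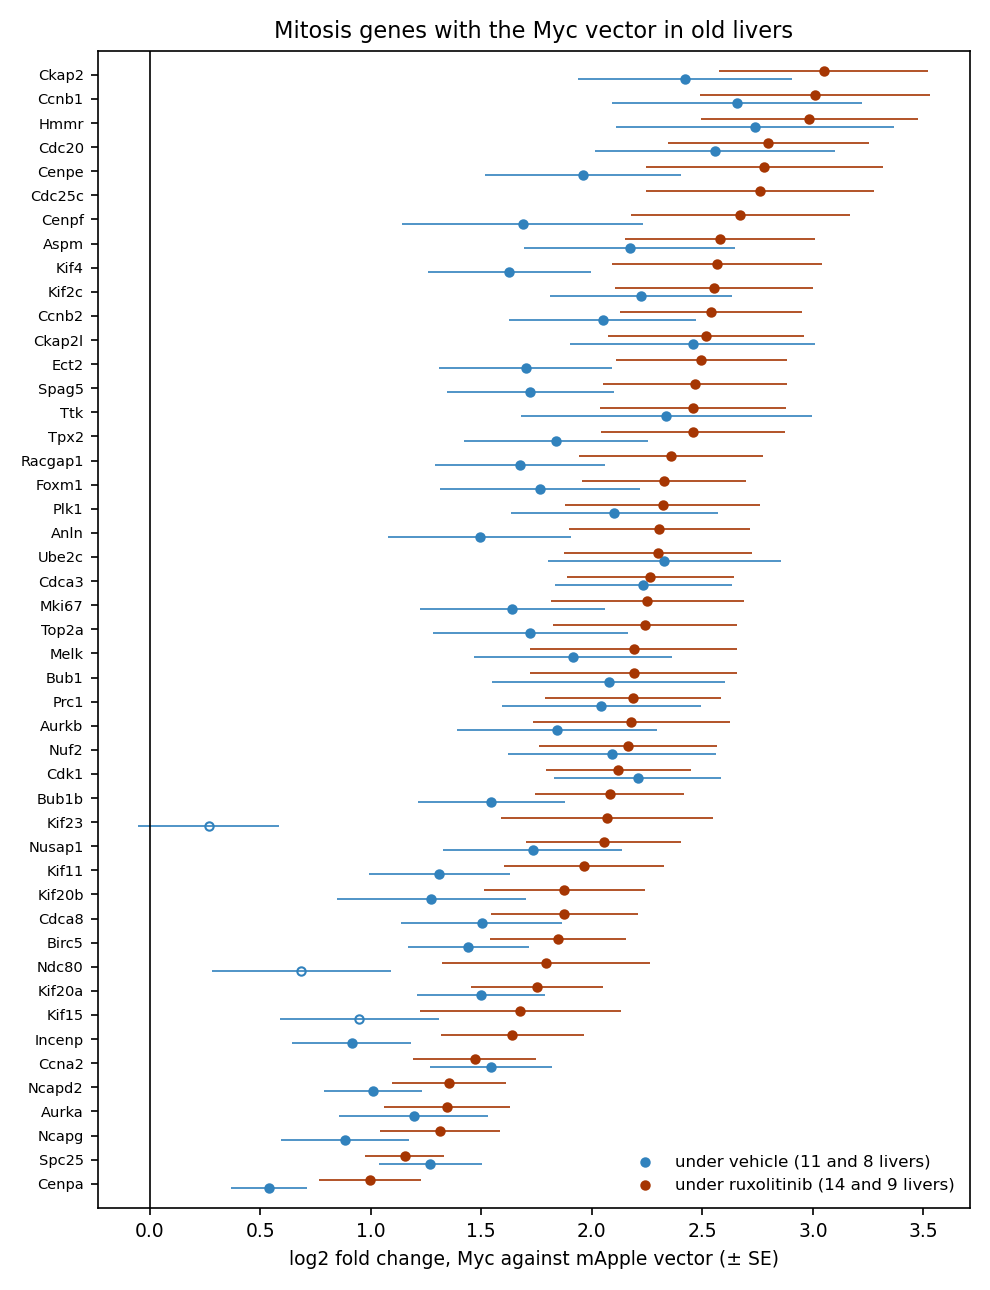
Log2 fold change ± SE of Myc against mApple vector for each mitosis gene (rows, in order of the value under ruxolitinib) in old livers under vehicle (blue) and under ruxolitinib (brown), with open circles for genes that were not called. All plotted values are above 0, with Kif23 at 0.27 under vehicle and 2.07 under ruxolitinib and Hmmr at 2.74 and 2.98.

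The second comparison asks the same under ruxolitinib (14 Myc against 9 mApple libraries). All 47 genes were tested and rose, with a median of 2.24, from 1.0 (Cenpa) to 3.05 (Ckap2). Over all 14029 tested genes 8.44% were called higher, and the median difference was 0.01. Cdk1 ranged from 3.55 to 21.3 CPM (median 6.14) in Myc livers and from 0.766 to 3.5 CPM (median 2.03) in mApple livers. All 14 Myc livers lay above all 9 mApple livers, and the difference was 2.12 ± 0.33 (edgeR adjusted p = 0.000226). Within each batch Cdk1, Cdc25c (2.76 ± 0.52), Cenpe (2.78 ± 0.54), Aspm (2.58 ± 0.43), Ect2 (2.50 ± 0.39) and Spc25 (1.15 ± 0.18) had no overlap, 6 genes in all, a pattern held by 0.57% of all tested genes. Ccnb1 ranged from 1.28 to 23.3 CPM (median 5.08) against 0.118 to 2.94 CPM (median 0.846), a difference of 3.01 ± 0.52 (adjusted p = 0.000522), and 12 of 14 Myc livers lay above every mApple liver.

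Cdc20 ranged from 2.7 to 40.7 CPM (median 9.46) in Myc livers under ruxolitinib against 0.589 to 4.02 CPM (median 1.11) in mApple livers, a difference of 2.80 ± 0.46 (edgeR adjusted p = 0.000308). Ckap2 ranged from 1.67 to 26.6 CPM (median 6.69) against 0.177 to 2.75 CPM (median 0.689), a difference of 3.05 ± 0.47 (adjusted p = 0.000224). For both genes 13 of 14 Myc livers lay above every mApple liver. Mki67 ranged from 3.31 to 111 CPM (median 11.4) against 1.0 to 21.8 CPM (median 5.98), a difference of 2.25 ± 0.44 (adjusted p = 0.00143), and Top2a from 3.77 to 63.0 CPM (median 10.2) against 0.995 to 12.2 CPM (median 4.2), a difference of 2.24 ± 0.42 (adjusted p = 0.000994). With both batches pooled, only 4 Myc livers for Mki67 and 6 for Top2a lay above every mApple liver. In the second batch the highest mApple values were lower, 5.98 and 5.52 CPM in library 1140. The mApple library 864, of the first batch, reached 21.8 and 12.2 CPM, the highest mApple values. That library also held neutrophil markers at a sum of 997 CPM, against 2.57 to 5.92 in the other 8 libraries of its group, and the lowest hepatocyte sum of its group, 57972 CPM. The part of those cells in its mitosis levels was not tested.

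Without libraries 860 and 861 the median difference between Myc and mApple under ruxolitinib went from 2.24 to 1.89, and 44 of 47 genes were called higher against 8.78% of all tested genes. The 3 genes no longer called were Kif23 (1.21 in place of 2.07, edgeR adjusted p = 0.051), Ndc80 (1.2 in place of 1.79) and Kif15 (0.87 in place of 1.68). These are also the 3 genes not called under vehicle. By role the medians under ruxolitinib were 2.27 for regulators, 1.86 for the passenger complex, 2.30 for checkpoint and APC/C genes, 2.16 for kinetochores, 2.32 for the spindle, 2.36 for cytokinesis and 1.35 for chromosome structure.

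Other genes of the cell cycle were set beside these. A second list of mitosis genes outside the 47 had 45 of 61 tested genes higher and 2 lower under vehicle (median 1.18), and 56 of 65 higher and 1 lower under ruxolitinib (median 1.41). Pbk, a mitotic kinase, differed by 2.56 ± 0.47 under vehicle, Knstrn, a kinetochore adaptor, by 2.27 ± 0.40 and Kifc1, a minus-end motor, by 2.09 ± 0.33. Of a DNA replication list, which holds the MCM helicase and its partners, 26 of 40 rose under vehicle (median 0.68) and 28 of 41 under ruxolitinib (median 0.66). Mcm6, a helicase subunit, rose by 1.66 ± 0.33 and 1.59 ± 0.24. Among MuvB, B-Myb and E2F regulators 6 of 18 rose under vehicle (median 0.19) and 5 of 18 under ruxolitinib (median 0.37). Of subunits of the APC/C itself and of cohesin, which are present through the whole cycle, 3 of 18 (median 0.02) and 2 of 18 (median 0.09) rose. Among the G1 genes 4 of 16 rose and 2 fell under vehicle, and 4 of 17 rose under ruxolitinib.

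Markers of other cells were read in the same fits. Under vehicle 0 of 12 lymphocyte and 0 of 12 Kupffer cell and macrophage markers were called, with medians of 0.04 and -0.15, and 7 of 8 endothelial markers were lower (median -0.44). Their sums ran from 21.3 to 68.3 CPM in Myc and 22.4 to 53.6 in mApple livers for lymphocytes, and from 382 to 820 and 348 to 957 for Kupffer cells. Under ruxolitinib 0 of 12 lymphocyte and 0 of 12 Kupffer cell markers were called, with medians of 0.07 and 0.77, and without 860 and 861 the Kupffer median was 0.19. There 4 of 8 endothelial markers were lower (median -0.47), or 1 of 8 without 860 and 861 (median -0.46), and 1 of 6 cholangiocyte markers was lower (median -0.67). Stellate cell and fibroblast markers had 1 of 8 lower under vehicle (median -0.37) and 1 of 8 under ruxolitinib (median -0.32). Of 12 hepatocyte genes 4 were lower under vehicle and 2 under ruxolitinib. Myc itself rose by 1.70 ± 0.39 (edgeR adjusted p = 0.00484) under vehicle and by 2.53 ± 0.24 (adjusted p = 1.31e-06) under ruxolitinib.

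Each batch was also fitted alone. Under vehicle 37 of 46 genes were called higher in the first batch alone (median 2.05, 4.06% of all tested genes), and in the second alone edgeR called 0 of 44 (median 1.29), of which 27 had an unadjusted p under 0.05, while 3.27% of all tested genes were called higher. Myc itself had medians of 92.2 and 35.7 CPM in Myc vehicle livers of the first and second batch, and 22.7 and 6.93 in mApple vehicle livers. Ccnb1 differed by 3.57 in the first and 1.87 in the second batch, Cdk1 by 2.52 and 1.90, and Cenpa by 0.99 and 0.14. Under ruxolitinib the second batch alone gave 43 of 47 genes (median 2.33, 7.18% of all), without Aurka, Cenpa, Kif15 and Ndc80. The first batch alone, with 4 libraries a group, gave 0 of 46 (median 2.10) and 0 of all 13580 tested genes (0.0%), although all 46 had an unadjusted p under 0.05. There 33 of the 47 genes had no overlap between the groups, against 3.86% of all tested genes. Myc itself ran from 50.7 to 111 CPM in Myc ruxolitinib livers of the first batch and from 24.4 to 45.8 in those of the second. In mApple ruxolitinib livers it ran from 7.65 to 19.3 and from 2.36 to 11.4 CPM. The part of the Myc level in these batch differences was not tested. The direction was thus the same in each batch, with every tested gene above 0 in all 4 fits.

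**Figure D5:**
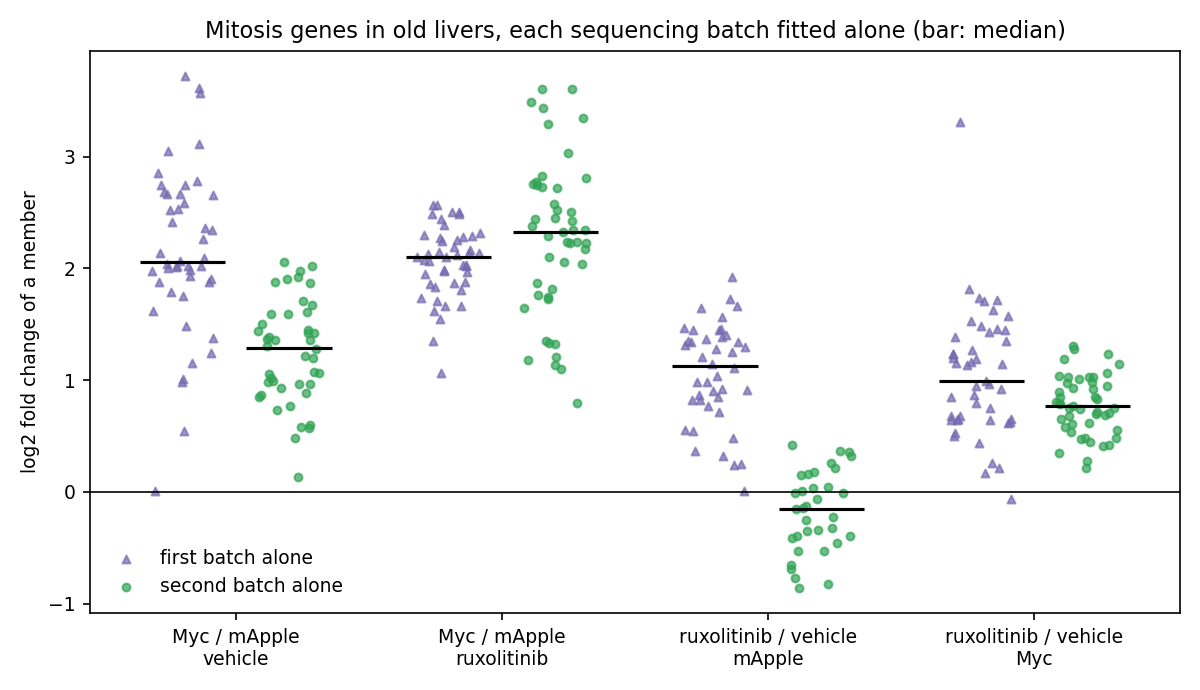
Log2 fold change (vertical axis) of each tested mitosis gene with the first batch (triangles) or the second (circles) fitted alone, for Myc against mApple and for ruxolitinib against vehicle in old livers, with a bar at each median. All points of both Myc comparisons lie above 0, and for ruxolitinib in mApple livers the medians are 1.13 in the first and -0.15 in the second batch.

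The third question is what ruxolitinib changed. In old mApple livers (9 ruxolitinib against 8 vehicle) edgeR called 0 of 44 tested genes, with a median of 0.44 and 3 at an unadjusted p under 0.05, and 0.39% of all 13577 tested genes were called in either direction. The 3 were Ccna2 (0.72 ± 0.19, adjusted p = 0.16), Cdk1 (0.74 ± 0.34) and Aurka (0.47 ± 0.21). DESeq2 called 1 gene, and 1.04% of all genes. In the first batch alone the median was 1.13, all 42 tested genes were above 0 and 33 had an unadjusted p under 0.05, and 24 of the 47 genes had every treated liver above every vehicle liver, against 4.26% of all tested genes. In the second alone the median was -0.15 and 12 of 34 genes were above 0. Mki67 differed by 1.31 in the first and -0.40 in the second batch, and Top2a by 1.21 and -0.53. In the first batch the Kupffer cell and macrophage sum was 482 to 1548 CPM in treated and 411 to 780 in vehicle livers, and in the second 246 to 674 and 348 to 957. Treated libraries 856, 857, 864 and 865 of the first batch held cholangiocyte markers at sums of 258, 89.2, 891 and 449 CPM, against 97.9 to 207 in vehicle livers, and stellate cell and fibroblast markers at 722, 525, 476 and 1301 CPM, against 384 to 532. With that batch fitted alone the median differences were 0.55 for Kupffer cell, 0.96 for cholangiocyte and 0.83 for stellate cell markers, none of them called, and in the second batch they were -0.82, -0.15 and -0.12. Neutrophil markers summed to 997 CPM in 864, as above. The part of these cells was not tested.

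In old Myc livers (14 ruxolitinib against 11 vehicle) edgeR called 0 of 47 genes, although all 47 were above 0, the median was 0.92 and 40 had an unadjusted p under 0.05. Over all 13774 tested genes 0.523% were called, and DESeq2 also called 0 mitosis genes (44 at an unadjusted p under 0.05) and 1.21% of all. The smallest adjusted p was that of Incenp (0.99 ± 0.31, adjusted p = 0.196), and Kif23 had the largest difference (1.55 ± 0.50, adjusted p = 0.206). Kif23 ranged from 0.782 to 53.7 CPM (median 2.57) under ruxolitinib against 0.743 to 2.9 CPM (median 1.81) under vehicle, with 860 at the top. Without libraries 860 and 861 the median was 0.60, 3 genes had an unadjusted p under 0.05, and Kif23 differed by 0.49. The Kupffer cell and macrophage markers had a median difference of 0.74 with these libraries and -0.03 without them.

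Within the first batch the ruxolitinib difference in Myc livers was called for Kif23 (3.31, edgeR adjusted p = 0.0262) and Incenp (1.82, adjusted p = 0.0464). These are 2 of 47 genes, a smaller share than the 5.98% of all tested genes called higher. Kif23 was there at 3.56, 5.07, 18.8 and 53.7 CPM in libraries 869, 868, 861 and 860 under ruxolitinib against 1.25 to 2.9 CPM (median 2.14) under vehicle. It was the only gene of the 47 that was higher without overlap, a share close to the 1.57% of all tested genes. In the second batch Kif23 differed by 0.22 and Incenp by 0.35, and 0 of 47 genes were called, with 5 at an unadjusted p under 0.05, beside 0.0582% of all tested genes. Libraries 860 and 861 are 2 of the 4 treated livers of the first batch. In that batch alone 9 of 12 Kupffer cell and macrophage markers (median 2.87) and 3 of 12 lymphocyte markers (median 0.95) were also higher under ruxolitinib, and in the second batch none of either list was called (medians -0.55 and -0.37).

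Whether ruxolitinib changed the Myc difference was tested directly, as the interaction of vector and drug in old livers. The edgeR test called 0 of 47 genes and 0 of all 14067 tested genes (0.0%), and 1 mitosis gene, Kif23 (1.61 ± 0.72, adjusted p = 0.816), had an unadjusted p under 0.05. The median interaction was 0.41 over the 47 genes, 0.08 without libraries 860 and 861, -0.15 in the first batch alone and 0.92 in the second. DESeq2 also called 0 genes (0.0%).

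In the control vector, age was compared in the second batch (4 old against 6 young mApple vehicle livers). The edgeR test called 0 of 28 tested genes, with 2 at an unadjusted p under 0.05, and DESeq2 called 0, while 1.11% of all 13196 tested genes were called by edgeR and 5.03% by DESeq2. The median difference, old minus young, was -0.50, and without library 1129 it was 0.51 over 24 tested genes, again with 0 called and 2 at an unadjusted p under 0.05, beside 3.9% of all tested genes. Leaving out that 1 library turned the sign. Mki67 was at a second-batch median of 3.06 CPM in old and 1.52 CPM in young livers, and Cdk1 at 0.839 and 0.8. Without 1129 the median differences of lymphocyte and Kupffer cell markers, old minus young, were 1.34 and 1.07, with 4 of 9 and 6 of 12 called, and 2 of 3 tested neutrophil markers were higher. The part of these cells was not tested.

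Under Myc with ruxolitinib, 10 old and 10 young livers of the second batch were compared. Of 44 tested genes 19 rose with age and 0 fell, with a median of 0.84, and 18.0% of all 12768 tested genes were called higher. Ccnb2 ranged from 1.56 to 21.5 CPM (median 5.11) in old and 0.708 to 4.09 CPM (median 2.24) in young livers, a difference of 1.48 ± 0.39 (edgeR adjusted p = 0.00609). Cdc20 ranged from 2.7 to 40.7 CPM (median 9.44) against 1.49 to 9.58 CPM (median 3.99), a difference of 1.40 ± 0.43 (adjusted p = 0.0169), and Ccnb1 from 1.28 to 23.3 CPM (median 4.72) against 0.55 to 5.4 CPM (median 2.28), a difference of 1.36 ± 0.47 (adjusted p = 0.0309). The age groups overlapped for all 47 genes, and 1.69% of all tested genes were higher without overlap. By role 4 of 9 regulators, 1 of 4 passenger complex, 3 of 5 checkpoint, 3 of 6 kinetochore, 7 of 14 spindle, 1 of 3 cytokinesis and 0 of 3 chromosome structure genes rose. Cdk1 (0.64 ± 0.30, adjusted p = 0.107), Mki67 (0.56 ± 0.38) and Top2a (0.42 ± 0.36) did not pass.

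Other lists were read in the same comparison of age under Myc and ruxolitinib. Of the second list of mitosis genes 16 of 55 rose and 1 fell (median 0.52), and of the DNA replication list 3 of 40 rose (median 0.05). Myc itself was lower in old livers (-0.69 ± 0.10, edgeR adjusted p = 3.33e-05), with second-batch medians of 31 CPM in old and 50.9 in young livers. Of the endothelial markers 6 of 8 were lower (median -0.55). In the other direction, 2 of 4 tested lymphocyte markers (median 0.89), the 1 tested neutrophil marker (1.67) and 4 of 5 tested genes of a fetal and tumour list (median 0.71) were higher, and of 12 Kupffer cell and macrophage markers 4 were higher and 1 lower (median 0.19). The lymphocyte sums ran from 8.18 to 41.1 CPM in old and 9.54 to 17.9 CPM in young livers. The part of these cells in the mitosis counts was not tested. The count of 19 moved with single libraries. It was 5 without old library 1149, 11 without old 1156, 6 to 10 without each of the young libraries 1119, 1120, 1121, 1122 and 1128, and 26 without old 1152.

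In young livers Myc with ruxolitinib was compared with mApple with vehicle (10 against 6), a contrast in which vector and drug cannot be told apart. Of 43 tested genes 4 rose and 0 fell, with a median of 0.92, and 13.5% of all 12829 tested genes were called higher. The 4 genes are thus a smaller share than that over all tested genes. The 4 were Ncapd2 (0.75 ± 0.22, edgeR adjusted p = 0.0175), Spc25 (0.62 ± 0.19, adjusted p = 0.0203), Incenp (0.92 ± 0.32, adjusted p = 0.0385) and Ckap2 (1.88 ± 0.69, adjusted p = 0.0491). Cdk1 ranged from 1.34 to 8.09 CPM (median 4.56) in Myc livers against 0.362 to 7.5 CPM (median 0.8) in mApple livers, whose highest value is that of 1129. Without that library 40 of 43 genes rose, all but Aurka, Cenpa and Kif23, with a median of 2.25 against 14.4% of all tested genes called higher. Leaving out any other single library gave 1 to 5 genes. It was 1 without each of 1130, 1131 and 1132, and 2 without each of 1122 to 1127, 1133 and 1134. The DNA replication list had 16 of 38 genes higher and 1 lower with 1129 (median 0.45), and 25 of 39 higher and 1 lower without it (median 0.67). Of 12 hepatocyte genes 5 were lower and 1 higher with 1129 (median -0.25), and 7 lower and 1 higher without it, while 0 of 12 Kupffer cell markers were called in either fit.

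The same contrast in old livers of the second batch (10 against 4) had 33 of 47 genes higher and 0 lower, with a median of 2.03, against 6.56% of all 13789 tested genes called higher. Cdk1 ranged from 3.55 to 17.3 CPM (median 4.93) in Myc ruxolitinib livers, and stood at 0.575, 1.04, 2.46 and 0.639 CPM in mApple vehicle libraries 1135 to 1138, with no overlap, a difference of 2.47 ± 0.50 (edgeR adjusted p = 0.00819). Cdk1 was 1 of 8 genes without overlap, with Ccna2, Bub1b, Cdca3, Cdc25c, Cenpe, Kif2c and Ncapd2, against 4.32% of all tested genes. The count fell to 2 without mApple library 1135, to 6 without 1138 and to 13 without 1136, and was 40 without Myc library 1152. In the same fit 7 of 8 endothelial markers were lower (median -0.91). Stellate cell, lymphocyte and Kupffer cell markers had medians of -0.78, -0.69 and -0.59, none of them called. The part of these cells was not tested. The difference between the old and the young contrast had a median of 1.16 over the 47 genes, and edgeR called 0 of them, with 9 at an unadjusted p under 0.05, and 0.256% of all 13652 tested genes. Without library 1129 that median was -0.01 and 2 genes had an unadjusted p under 0.05.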

How the data were processed

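RNA from 58 livers was sequenced in paired 75-base reads after poly(A) selection, per the labels' protocols. Reads were aligned with STAR to GRCm38 (mm10) and counted with HOMER, per the submitters' processing notes; versions are not given in the sources used here. The deposited values are estimated counts of reads over exons, 1 transcript per gene, per the file headers. They step by 0.5 (29.9% are not whole) and were rounded. No strand setting is stated, so reads of overlapping or antisense genes cannot be told apart. Depth per library, given with the results, limits precision for genes at a few counts.

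Counts were scaled by TMM, filtered with filterByExpr (minimum count 10) and tested with edgeR 4.0.16 (quasi-likelihood, two-sided, Benjamini-Hochberg over all tested genes, threshold 0.05; R 4.3.3), with batch as a term where both batches entered. The pipeline was tested on simulated data. Levels use log2(CPM + 1). Alternatives were RLE scaling, no filter, DESeq2 1.42.0, limma 3.58.1 voom with weights, 1 fit of all 58 libraries, no batch term, each batch alone, and leaving out each library or those that stood apart. Python 3.11.15 with pandas 2.3.3, numpy 2.4.6 and matplotlib 3.10.9 made summaries and figures. The members, the lists and the naming rule were chosen with earlier results of these data known: 18 members are described by library, further members are those with the 5 smallest p or 5 largest changes, up to 10 of the smaller of the called and uncalled groups, and from each other list up to 4 genes with the smallest p. Members named outside the rule were chosen after their values were seen. Reference promoters came from RefSeq.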

Additional observations from a re-analysis of the deposited data

Results flagged for a closer look

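In groups of 4 to 10 libraries the gap between the extreme library and its nearest neighbour was divided by the group's range, on log2(CPM + 1), for the mean level of the 47 genes and for 18 of them. Of 76 such sets 19 passed Dixon's 95% critical value, where chance gives about 1 in 20. In 18 of the 19 the library was 1129, highest of young mApple vehicle. That library had been set apart from these same data beforehand, so its passing adds no independent support and cannot be set against the chance rate. The ratio of 1129 was 0.87 for the mean level. Among regulators it was 0.662 for Mki67, 0.761 for Cdk1, 0.923 for Ccnb1, 0.694 for Ccnb2, 0.842 for Plk1, 0.684 for Aurka and 0.793 for Foxm1. In the passenger complex it was 0.748 for Aurkb, 0.718 for Birc5 and 0.73 for Incenp, and among checkpoint and APC/C genes 0.718 for Cdc20, 0.876 for Bub1b and 0.882 for Ube2c. It was 0.872 for Anln, 0.771 for Kif11, 0.738 for Ndc80 and 0.789 for Top2a. These sets come from 1 library and are not independent of each other. The other was Cdc20 in old mApple vehicle, with library 1137 highest at 0.686.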

How the results depend on the processing

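The number of mitosis genes past the threshold stayed within 1.5 times the main count under RLE scaling and with no filter on low counts, in all comparisons. Under Myc against mApple it became 0 in the second batch alone under vehicle and 0 in the first batch alone under ruxolitinib; the cause was not tested. Ruxolitinib against vehicle gave 1 gene with DESeq2 in mApple livers, and in Myc livers 1 in the fit of all 58 libraries and 2 in the first batch alone. Age in mApple livers gave 1 gene, lower, with voom weights. Myc with ruxolitinib against mApple with vehicle in young livers gave 39 with voom weights, 1 in the fit of all 58 libraries and 40 without library 1129, against 4. The age difference of that contrast gave 1 in the fit of all 58 libraries. Leaving out each library in turn gave 37 to 44 genes for Myc under vehicle, 47 to 47 for Myc under ruxolitinib, 5 to 26 for age under Myc with ruxolitinib, 1 to 40 for the young contrast, 2 to 40 for the old one, and 0 to 0 for the other 5 comparisons. The share of the genes' promoters with TTTGAA or TTCGAA was 40.5% in the 200 bases before the start alone, against 85.7%, since many matches lie after it. Over all promoters the shares in these windows were 13.4% and 19.2%. No paired analysis was possible because the groups share no library numbers. Genes at under 1 CPM, such as Ndc80 and Cdc25c, rest on few counts in the mApple livers.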
